A study of Mus musculus with 19 samples.

Results

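The 39 genes described here encode the subunits of respiratory complexes II, III, IV and V that are made from nuclear DNA. They were taken by symbol from the count table, where all 39 of 26621 genes were found: 4 genes of complex II (Sdha to Sdhd), 9 of complex III (the Uqcr genes and Cyc1), 11 of complex IV (the Cox genes) and 15 of complex V (the Atp5 genes). The cells were neural progenitor cells (NPCs), cells that divide in the embryonic brain and give rise to neurons and glia. They came from mouse cerebral cortex at embryonic day 17.5 and were cultured on Matrigel with B27, N2, bFGF and EGF. Libraries came from Mettl8 conditional knockout (cKO) NPCs, 6 for RNA-seq and 3 for HAC-seq, and from wild-type (WT) NPCs, 6 for RNA-seq and 4 for HAC-seq. The Mettl8 enzyme methylates mitochondrial tRNA and leaves 3-methylcytidine (m3C) there. The sources used here do not name the driver of the Cre recombinase or the strain, nor do they say whether libraries came from separate embryos or cultures. The p-values therefore cover only library-to-library spread, which may be technical. The names of the RNA-seq libraries give a pair of library sets. In set 2 are cKO replicates 3 to 6 with WT replicates 4 to 6, and in set 1 are cKO replicates 1 and 2 with WT replicates 1 to 3.

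Oxidative phosphorylation takes place in the inner mitochondrial membrane. Complex II (succinate dehydrogenase) oxidises succinate in the citric acid cycle and passes the electrons to ubiquinone. Complex III (cytochrome bc1) moves electrons from ubiquinol to cytochrome c while pumping protons, complex IV (cytochrome c oxidase) hands them to oxygen and pumps protons too, and complex V (ATP synthase) lets protons flow back to drive ATP synthesis. All subunits of complex II are encoded in the nucleus, whereas complexes III, IV and V combine nuclear subunits with core subunits translated inside mitochondria, a step that uses the mitochondrial tRNAs.

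RNA-seq depth ran from 11830839 to 15766429 counts per library in cKO and from 15096888 to 18863781 in WT. Mettl8 itself ranged from 59.3 to 80.9 CPM in cKO (median 74.9) and from 35.9 to 58.6 CPM in WT (median 46.9), and counts over the whole gene do not isolate the deleted stretch, so they check nothing. The m3C site of the mitochondrial tRNA for threonine, a known target of the enzyme, was cleaved in 2.11%, 1.70% and 2.51% of HAC-seq reads in cKO, against 93.7%, 94.6%, 94.7% and 94.7% in WT. Summed markers of neural progenitors (8 genes), mostly Fabp7, ranged from 5906 to 10326 CPM in cKO and from 6337 to 10558 CPM in WT. Those of astrocytes, mostly Slc1a3, reached 7826 CPM in cKO and 7846 CPM in WT. Those of the oligodendrocyte lineage reached 1114 CPM in cKO and 1119 CPM in WT, and those of neurons 195 CPM in cKO and 260.2 CPM in WT. Sums for microglia, endothelium and meningeal fibroblasts stayed at or under 7.76 CPM in cKO and 6.67 CPM in WT, with C1qa of microglia at 0 throughout. CPM are counts relative to library size, scaled by edgeR's TMM factors. In the annotation 13 of the 39 genes overlap another gene, among them Atp5a1 (Haus1), Atp5j (Gabpa) and Uqcrq (Gdf9), and small subunit genes are known for near-identical pseudogenes, so reads may be shared where the counting is not known. In such bulk samples, fewer cells of a type and less RNA per cell cannot be told apart.

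Most of these subunit genes lay slightly lower in cKO than in WT, and none passed the test adjusted over all genes. Of 38 genes tested, 29 had a log2 fold change below 0, with a median of -0.09 (within set 2 -0.10, within set 1 -0.06), beside a median of -0.001 over all 13105 genes tested. No subunit gene passed an adjusted p of 0.05 in edgeR's quasi-likelihood test with library set as a covariate (0 of 38, smallest adjusted p = 0.803), where 0% of all genes passed. DESeq2 and limma-voom called 0 of the subunit genes as well, and 2 and 1 of all genes. At an unadjusted p under 0.05 edgeR placed 15 of the 38 lower and 0 higher, which is 39.5% of them, while 3.28% of all genes were lower and 2.86% higher at that level. No gene had all 6 cKO libraries below all 6 WT libraries (0 of 38, beside 0.0916% of all genes). Within set 2, all 4 cKO libraries lay below all 3 WT libraries for 10 of 38 genes, beside 3.96% of all genes. Within set 1, both cKO libraries lay below all 3 WT libraries for 8 of 38, beside 8.36% of all genes, and Sdhb, Sdhd, Uqcr10 and Cox7b were in both groups. The test of whether the genotype difference itself differed between the sets called 0 of 38 genes (edgeR, smallest adjusted p = 1.00), with 0 at an unadjusted p under 0.05, beside 0% called and 3.54% at that unadjusted level over all genes. With single libraries left out, 8 to 16 of 38 genes reached the unadjusted level in edgeR, with 8 without WT replicate 4 or without cKO replicate 2. Of the cell type markers none was called, and 5 of 5 for astrocytes lay below 0 (median -0.14), 4 of 6 for the oligodendrocyte lineage (median -0.14), 4 of 4 tested for neurons (median -0.18) and 5 of 7 tested for progenitors (median -0.04), while the 1 tested microglia marker stood at 0.18. In set 2 alone the medians were -0.27 for astrocytes, -0.24 for the oligodendrocyte lineage, -0.39 for neurons and -0.14 for progenitors. In set 1 alone they were -0.01, -0.04, 0.19 and 0.02 in the same order, where that of the subunit genes was -0.06. Their part in the difference was not tested.

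**Figure D1:**
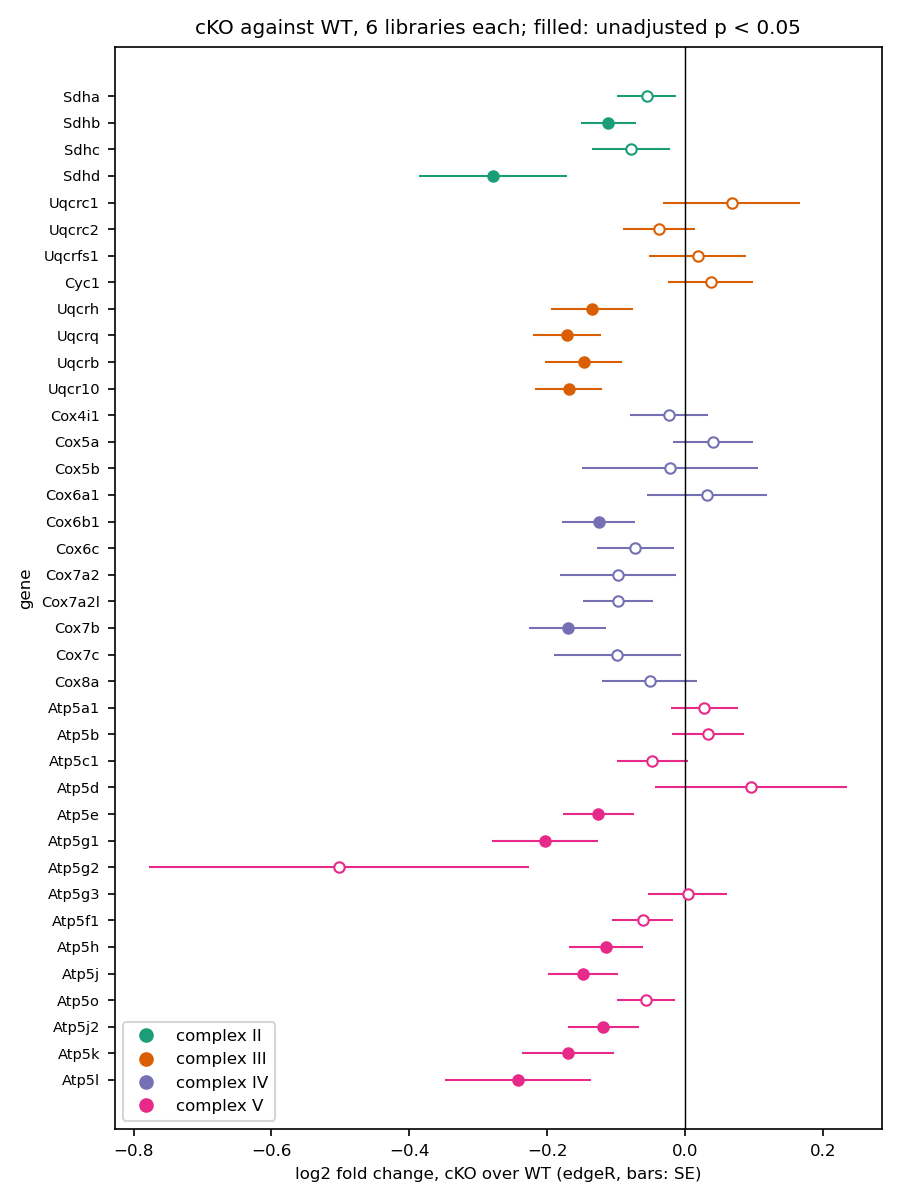
Log2 fold change of each of the 38 tested subunit genes, cKO over WT (x axis, with SE from edgeR), ordered by complex (colour). Filled points mark an unadjusted p under 0.05, and all 15 of them lie left of 0.

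The difference was uneven over the cKO libraries. Scored as the median log2 difference of the 38 genes from the WT mean of the same set, cKO replicates 3, 4, 5 and 6 of set 2 stood at -0.21, -0.02, -0.10 and -0.08, against 0.04, 0.02 and -0.05 in WT replicates 4, 5 and 6. In set 1 cKO replicates 1 and 2 stood at -0.03 and -0.12, against -0.07, 0.03 and 0.04 in WT replicates 1, 2 and 3. All 6 cKO scores were below 0, and those of cKO replicates 4 and 1 lay inside the range of the WT scores of their set. The lowest library, cKO replicate 3, had 33 of 38 genes below the WT mean of its set, and cKO replicate 4 had 21 of 38. Without cKO replicate 3 the count at an unadjusted p under 0.05 was 10 (edgeR), and the complex III median moved to -0.06 (-0.09 with it).

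**Figure D2:**
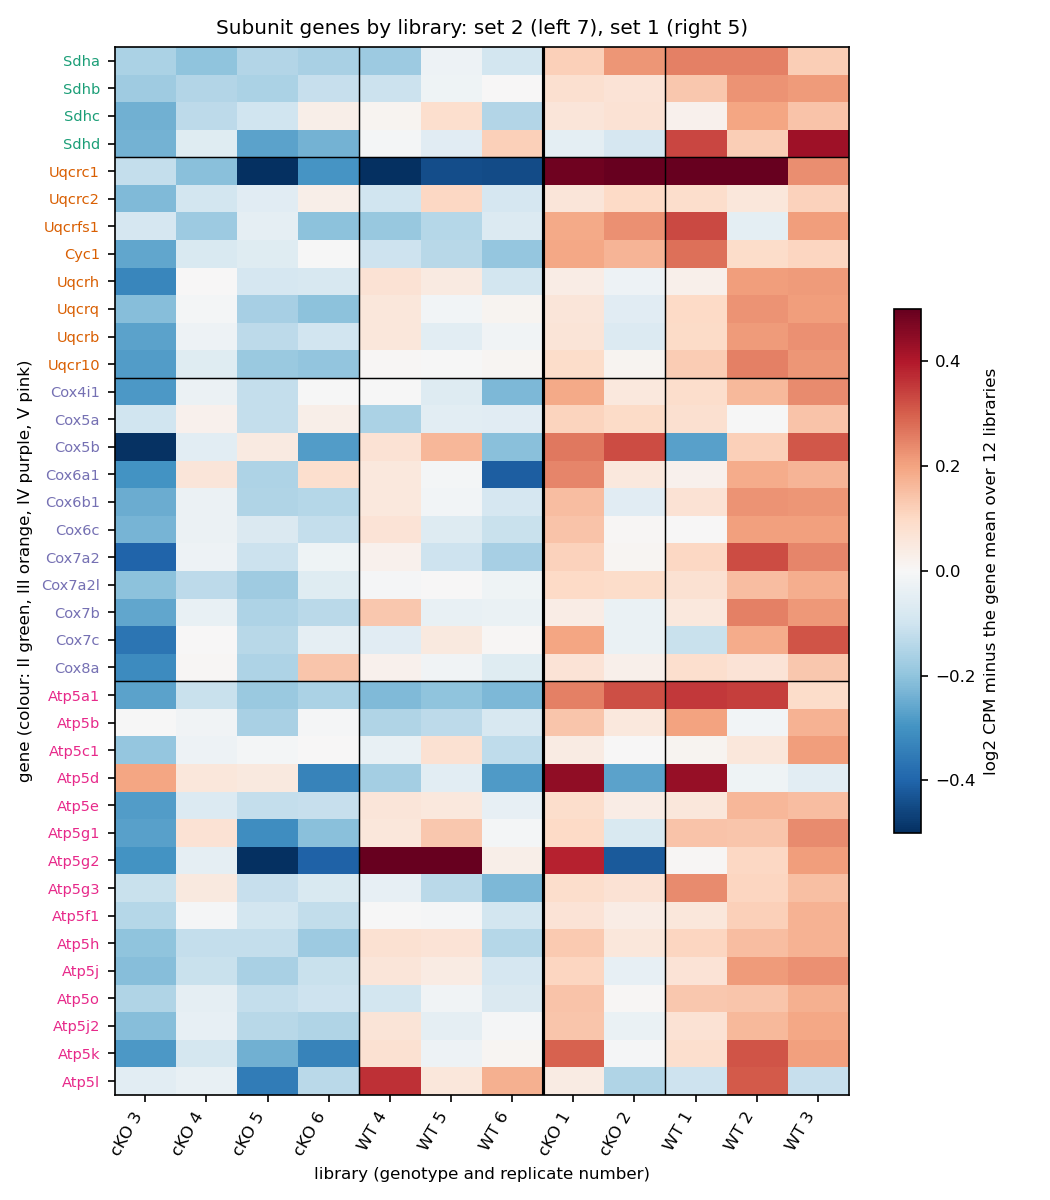
Level of each tested subunit gene (rows) in the 12 RNA-seq libraries (columns), as log2 CPM minus the gene's mean over the 12 libraries (colour scale from -0.5 to 0.5). The heavy line parts set 2 from set 1. Blue fills most of the set 2 side and red most of the set 1 side, where 36 of 38 genes had a fold change below 0 between the sets.

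The promoters of 5 genes that lay lower in cKO at an unadjusted p under 0.05 are shown, chosen after the values were seen, to set windows with and without known motifs side by side. Each line gives the 100 bases before the transcription start, from RefSeq on GRCm38.p6, read 5′ to 3′ on the gene's strand. Capitals mark matches on either strand to GCGCATG (bound by NRF1, nuclear respiratory factor 1), CCGGAAG (the ETS core that GABPA binds) or AAGATGG (YY1). All 3 factors are known activators of respiratory genes.
Sdhb, chr4:140961171-140961270, strand plus: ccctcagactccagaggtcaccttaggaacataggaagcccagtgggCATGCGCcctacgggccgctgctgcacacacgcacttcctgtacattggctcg
Uqcrh, chr4:116075071-116075170, strand minus: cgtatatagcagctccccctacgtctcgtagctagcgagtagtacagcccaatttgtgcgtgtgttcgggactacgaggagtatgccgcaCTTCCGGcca
Atp5k, chr5:108434400-108434499, strand minus: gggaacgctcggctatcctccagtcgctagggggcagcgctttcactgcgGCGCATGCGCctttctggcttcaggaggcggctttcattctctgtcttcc
Atp5j, chr16:84834977-84835076, strand minus: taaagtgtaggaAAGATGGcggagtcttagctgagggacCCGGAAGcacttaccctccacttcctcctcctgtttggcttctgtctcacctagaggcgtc
Uqcr10, chr11:4704345-4704444, strand minus: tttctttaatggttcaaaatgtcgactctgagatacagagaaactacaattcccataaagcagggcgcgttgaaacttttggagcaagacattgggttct
Sdhb, the iron-sulfur subunit of complex II, carries an NRF1 match, Uqcrh an ETS core next to its start, and Atp5k an NRF1 palindrome made of overlapping matches on both strands. Atp5j, shown at 1 of its 2 listed starts, has a YY1 and an ETS match, and in the annotation it overlaps Gabpa, the gene of a subunit of that ETS factor. Uqcr10 has none of these letters in the window shown. Of the 39 genes, 30 had a promoter in the RefSeq table (250 bases before to 50 after the start). An ETS match stood in 12 of the 30 (40.0%), beside 9.93% of the 27025 genes of the table, and an NRF1 match in 8 (26.7%), beside 4.41%. YY1 matches stood in 3 of the 30, beside 7.28%, and the GC box GGGCGG of SP1 in 10 (33.3%), beside 38.2%. The 27025 genes were not limited to the 13105 tested in RNA-seq. A match is a description of the letters, not of binding.

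Complex II showed the same sign for all its genes. All 4 Sdh genes lay below 0 in cKO (median -0.09), 2 of them at an unadjusted p under 0.05. Their summed level was 2448 ± 44.7 CPM in cKO (SD, n = 4) and 2600.4 ± 102.9 CPM in WT (SD, n = 3) of set 2, and 2954 ± 68.4 CPM in cKO (SD, n = 2) and 3107 ± 80.9 CPM in WT (SD, n = 3) of set 1. In set 2 Sdhb stood at 943, 963, 955 and 984 CPM in cKO, against 989, 1049.8 and 1066 CPM in WT, and in set 1 at 1126 and 1117 CPM in cKO, against 1169, 1245 and 1236 CPM in WT. Every cKO library lay below every WT library of its set, and the log2 fold change was -0.11 (SE 0.0403, unadjusted p = 0.0125). Sdha is the flavoprotein that oxidises succinate and hands the electrons to the iron-sulfur clusters of Sdhb. Sdha measured 1158, 1124, 1167 and 1155 CPM in the cKO libraries of set 2, against 1140.2, 1268 and 1210.5 CPM in WT, and 1403 and 1506 CPM in the cKO libraries of set 1, against 1538, 1538 and 1406 CPM in WT. The genotypes overlapped in both sets at a log2 fold change of -0.06 (SE 0.0432), while the sets stood well apart. Sdhc and Sdhd form the anchor in the membrane that binds ubiquinone. For Sdhc the levels were 298, 322, 328 and 359 CPM in cKO and 355, 373 and 318 CPM in WT of set 2, and 367 and 369.7 CPM in cKO and 357, 403 and 388 CPM in WT of set 1. Its genotypes overlapped within set 2 and within set 1. In set 2 Sdhd stood at 9.11, 10.28, 8.90 and 9.10 CPM in cKO, against 10.66, 10.31 and 11.66 CPM in WT, and in set 1 at 10.38 and 10.12 CPM in cKO, against 13.52, 11.69 and 14.37 CPM in WT. Sdhd was counted with 124 to 245 reads per library, so its counting error was larger than that of the other 3, and its libraries did not overlap within either set. Its log2 fold change was -0.28 (SE 0.107, unadjusted p = 0.0176).

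In complex III the small subunits lay lower in cKO and the core subunits near 0. Of the 4 core genes, 1 lay below 0 (median 0.03), whereas the 4 tested small subunits all lay below 0 (median -0.16) and all 4 were at an unadjusted p under 0.05. This grouping by role was chosen after the values were seen, and the difference between the groups was not tested. Uqcrc1 and Uqcrc2, the large core proteins on the matrix side, stood at 0.07 (SE 0.0991) and -0.04 (SE 0.0516). Cyc1, cytochrome c1, carries the haem that passes electrons to cytochrome c. Cyc1 measured 61.8, 70.3, 71.0 and 74.1 CPM in the cKO libraries of set 2, against 68.9, 67.3 and 64.9 CPM in WT, and 84.8 and 83.4 CPM in the cKO libraries of set 1, against 89.6, 79.1 and 79.8 CPM in WT. The genotypes overlapped in both sets at 0.04 (SE 0.062). Uqcrfs1, the Rieske iron-sulfur protein that takes electrons from ubiquinol, was also near 0. For Uqcrfs1 the levels were 55.1, 51.5, 56.6 and 50.6 CPM in cKO and 51.2, 52.9 and 55.7 CPM in WT of set 2, and 66.5 and 68.4 CPM in cKO and 73.4, 56.4 and 67.5 CPM in WT of set 1. Its log2 fold change was 0.02 (SE 0.0701). Summed over the complex, levels were 2088 ± 116 CPM in cKO (SD, n = 4) and 2254 ± 47.9 CPM in WT (SD, n = 3) of set 2, and 2392 ± 53.9 CPM in cKO (SD, n = 2) and 2575 ± 53.6 CPM in WT (SD, n = 3) of set 1. The small subunits surround the core. In set 2 Uqcr10 stood at 352, 410.0, 376 and 372 CPM in cKO, against 429, 426 and 430.4 CPM in WT, and in set 1 at 455 and 431 CPM in cKO, against 465.9, 509 and 498 CPM in WT. Uqcr10, a small subunit beside cytochrome c1, had all cKO libraries below all WT libraries in both sets, at -0.17 (SE 0.0485, unadjusted p = 0.00249). Uqcrq measured 429.4, 494.2, 443.4 and 432.3 CPM in the cKO libraries of set 2, against 518.4, 493.5 and 503.1 CPM in WT, and 518.7 and 478.6 CPM in the cKO libraries of set 1, against 533.3, 581.1 and 575.4 CPM in WT. Uqcrq, a small subunit that sits beside cytochrome b, stood at -0.17 (SE 0.0494, unadjusted p = 0.00264), with no overlap in set 1 and with cKO replicate 4 just above WT replicate 5 in set 2. For Uqcrb the levels were 151, 179, 166 and 170.5 CPM in cKO and 189, 176 and 180.2 CPM in WT of set 2, and 191 and 174 CPM in cKO and 195, 211 and 214 CPM in WT of set 1. Uqcrb, known as a ubiquinone-binding protein, was at -0.15 (SE 0.0559, unadjusted p = 0.0164) with no overlap in set 1 and, in set 2, cKO replicate 4 above WT replicate 5. Uqcrh, the hinge protein between cytochrome c1 and cytochrome c, stood at -0.13 (SE 0.0594, unadjusted p = 0.0351). Uqcr11 could not be judged in RNA-seq: it had 2 counts in WT replicate 3, 2 in WT replicate 4 and 0 in the other 10 libraries, all under the floor of 3 counts, so no fold is given.

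In complex IV 9 of 11 genes lay below 0 (median -0.07), 2 of them at an unadjusted p under 0.05. Its median moved to -0.04 without WT replicate 4. The summed level was 2299.7 ± 157 CPM in cKO (SD, n = 4) and 2428 ± 136 CPM in WT (SD, n = 3) of set 2, and 2639.5 ± 172 CPM in cKO (SD, n = 2) and 2784 ± 158 CPM in WT (SD, n = 3) of set 1. Cox4i1 and Cox5a, the largest nuclear subunits, regulate the enzyme and bind early in its assembly. In set 2 Cox4i1 stood at 616, 737, 691 and 750.5 CPM in cKO, against 751, 719 and 643 CPM in WT, and in set 1 at 856 and 779 CPM in cKO, against 798, 839.5 and 884 CPM in WT. The genotypes overlapped in both sets, at -0.02 (SE 0.0568). Cox5a measured 70.3, 76.5, 69.3 and 76.8 CPM in the cKO libraries of set 2, against 67.5, 72.5 and 72.3 CPM in WT, and 81.3 and 80.4 CPM in the cKO libraries of set 1, against 79.6, 75.2 and 83.1 CPM in WT. Cox5a stood on the other side of 0, at 0.04 (SE 0.0579). Cox5b is a zinc-binding subunit on the matrix side. For Cox5b the levels were 11.96, 16.3, 17.4 and 13.9 CPM in cKO and 17.7, 18.9 and 14.6 CPM in WT of set 2, and 20.2 and 21.1 CPM in cKO and 14.0, 18.3 and 20.9 CPM in WT of set 1. Its sign turned between the sets, with a log2 fold change of -0.20 (SE 0.161) in set 2 and 0.22 (SE 0.189) in set 1, and edgeR's test of that difference gave an unadjusted p of 0.104. Cox7b and Cox6b1 were the pair at an unadjusted p under 0.05. In set 2 Cox7b stood at 245.6, 286.4, 263.8 and 267.2 CPM in cKO, against 322.3, 286.7 and 286.8 CPM in WT, and in set 1 at 301.6 and 286.9 CPM in cKO, against 304.4, 349.6 and 341.5 CPM in WT. Cox7b, a small transmembrane subunit, had all cKO libraries below all WT libraries in both sets, at -0.17 (SE 0.0553, unadjusted p = 0.00621). Cox6b1 measured 535, 623, 573 and 575 CPM in the cKO libraries of set 2, against 659, 629.8 and 600.0 CPM in WT, and 706 and 610.2 CPM in the cKO libraries of set 1, against 668, 742 and 741 CPM in WT. Cox6b1, which bridges the monomers of the dimeric enzyme on the side of cytochrome c, overlapped between genotypes in both sets, at -0.12 (SE 0.0529, unadjusted p = 0.0289). Cox7a2l, the factor that joins complexes III and IV into supercomplexes, separated in set 2 but not in set 1. For Cox7a2l the levels were 141, 149, 144 and 157 CPM in cKO and 162, 163 and 161 CPM in WT of set 2, and 175 and 174 CPM in cKO and 172, 182 and 185 CPM in WT of set 1. It did not reach the unadjusted level, at -0.10 (SE 0.0506, unadjusted p = 0.071). The other 5 genes, Cox6a1, Cox6c, Cox7a2, Cox7c and Cox8a, ran from -0.10 (Cox7c) to 0.03 (Cox6a1).

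In complex V 11 of 15 genes lay below 0 (median -0.11), and 7 were at an unadjusted p under 0.05. By role, again grouped after the values were seen, the 5 genes of the head had a median of 0.03, the 3 genes of the c-ring -0.20, the 4 of the stalk -0.09 and the 3 small membrane subunits -0.17. The differences between these groups were not tested, and members varied within them, with Atp5e of the head at -0.13 and Atp5g3 of the c-ring at 0.0043. The summed level was 5992 ± 236 CPM in cKO (SD, n = 4) and 6167 ± 168 CPM in WT (SD, n = 3) of set 2, and 7109 ± 159 CPM in cKO (SD, n = 2) and 7336 ± 69.2 CPM in WT (SD, n = 3) of set 1. Atp5a1 and Atp5b encode the alpha and beta subunits that alternate around the head and bind the nucleotides. In set 2 Atp5a1 stood at 1475, 1648, 1565 and 1593 CPM in cKO, against 1527, 1549 and 1519.8 CPM in WT, and in set 1 at 2118 and 2222 CPM in cKO, against 2271, 2261 and 1896 CPM in WT. Atp5b measured 424, 419.6, 379 and 423 CPM in the cKO libraries of set 2, against 383, 388 and 401 CPM in WT, and 467 and 441 CPM in the cKO libraries of set 1, against 488, 420.0 and 478 CPM in WT. Both overlapped between genotypes in each set, at 0.03 (SE 0.0481) for Atp5a1 and 0.03 (SE 0.0523) for Atp5b. Atp5c1 encodes the gamma shaft that turns inside the head. For Atp5c1 the levels were 1005, 1130.0, 1142 and 1150.3 CPM in cKO and 1122, 1212 and 1052 CPM in WT of set 2, and 1183 and 1150.1 CPM in cKO and 1160.4, 1194 and 1327 CPM in WT of set 1. It overlapped too, at -0.05 (SE 0.0511). Of the remaining head genes, Atp5e (epsilon) stood at -0.13 (SE 0.0514, unadjusted p = 0.0243) and Atp5d (delta), with 144 to 305 counts per library, at 0.10 (SE 0.139).

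The c-ring, the rotor in the membrane, is built from a single mature protein that 3 genes encode. In set 2 Atp5g1 stood at 36.4, 46.4, 35.5 and 38.1 CPM in cKO, against 45.8, 48.3 and 43.8 CPM in WT, and in set 1 at 47.2 and 41.8 CPM in cKO, against 48.6, 48.5 and 51.8 CPM in WT. Atp5g1 separated by genotype in set 1 but overlapped in set 2, where cKO replicate 4 stood above WT replicates 4 and 6, at -0.20 (SE 0.0772, unadjusted p = 0.0165). Atp5g3 measured 145, 162, 145 and 149 CPM in the cKO libraries of set 2, against 153, 143 and 135 CPM in WT, and 167 and 165 CPM in the cKO libraries of set 1, against 185, 169 and 175 CPM in WT. Atp5g3 stood at 0.0043 (SE 0.0572) and kept the genotypes apart in set 1 alone. For Atp5g2 the levels were 1.25, 1.49, 0.88 and 1.16 CPM in cKO and 2.48, 2.23 and 1.57 CPM in WT of set 2, and 2.01 and 1.15 CPM in cKO and 1.55, 1.65 and 1.78 CPM in WT of set 1. Atp5g2 had the fewest counts of the tested genes, separated in set 2 and overlapped in set 1, at -0.50 (SE 0.276, unadjusted p = 0.0847). The stalk genes Atp5f1, Atp5h, Atp5j and Atp5o hold the head still against the rotor, and all 4 lay below 0. In set 2 Atp5j stood at 328, 352, 339 and 351 CPM in cKO, against 395, 391 and 358 CPM in WT, and in set 1 at 409 and 369 CPM in cKO, against 398, 440.4 and 444 CPM in WT. Atp5j (subunit F6) had no overlap in set 2, and in set 1 cKO replicate 1 stood above WT replicate 1, at -0.15 (SE 0.0504, unadjusted p = 0.00856). Atp5o measured 815, 877, 833 and 840.3 CPM in the cKO libraries of set 2, against 849, 894 and 859 CPM in WT, and 998 and 908 CPM in the cKO libraries of set 1, against 992, 996 and 1022 CPM in WT. Atp5o, the protein that joins stalk and head and gives oligomycin sensitivity, overlapped in both sets, at -0.06 (SE 0.0423). Atp5h stood at -0.11 (SE 0.054, unadjusted p = 0.0471) and Atp5f1 at -0.06 (SE 0.0443). Atp5k (subunit e) and Atp5l (subunit g) sit where ATP synthases pair into dimers. For Atp5k the levels were 180.4, 207, 187 and 175 CPM in cKO and 232, 216 and 222 CPM in WT of set 2, and 271 and 219 CPM in cKO and 233, 274 and 254 CPM in WT of set 1. Atp5k separated in set 2 and overlapped in set 1, at -0.17 (SE 0.0669, unadjusted p = 0.0198). Atp5l stood at -0.24 (SE 0.106, unadjusted p = 0.0336) and Atp5j2 (subunit f) at -0.12 (SE 0.0515, unadjusted p = 0.0326).

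**Figure D3:**
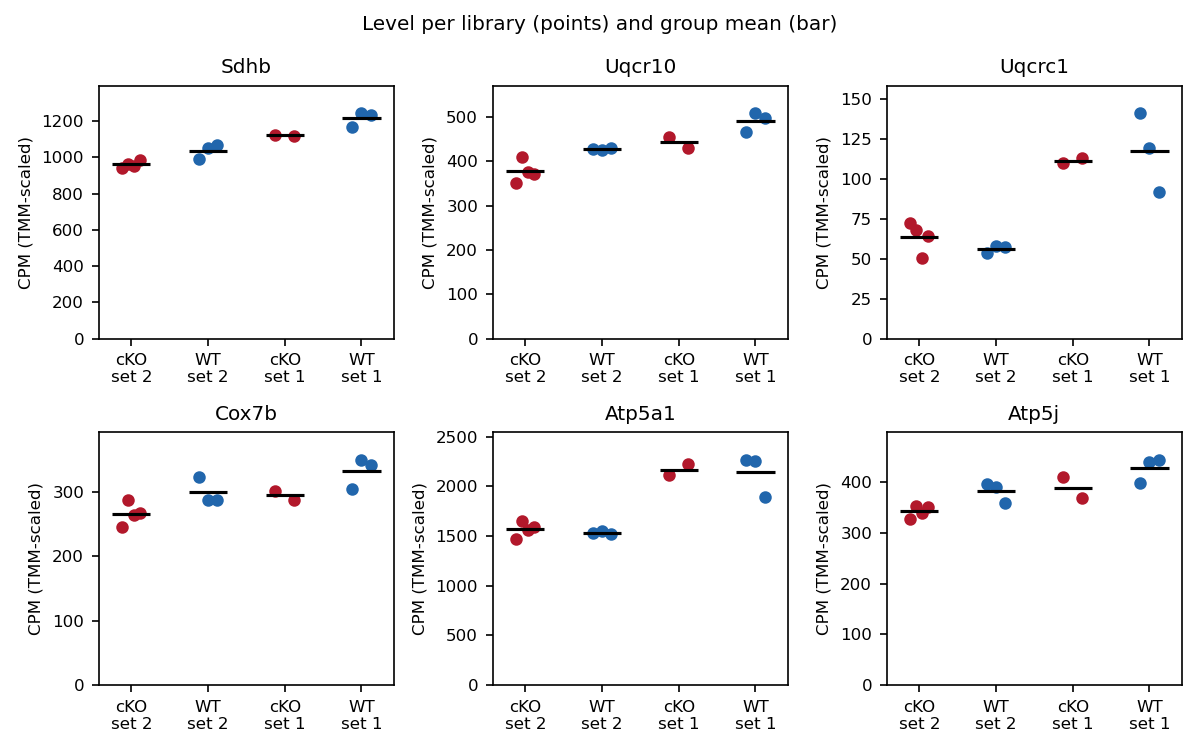
CPM (TMM-scaled, y axis from 0) of 6 subunit genes in each library (points) with group means (bars), by genotype and library set. Sdhb, Uqcr10 and Cox7b keep cKO below WT within both sets, Atp5j does so in set 2, and Uqcrc1 and Atp5a1 part the sets rather than the genotypes.

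Between the library sets most of these genes differed. In set 2, against set 1, 28 of 38 subunit genes fell and 0 rose at an adjusted p under 0.05 (edgeR, 73.7% called), where 43.8% of all genes were called, 22.2% lower and 21.5% higher. The median log2 fold change was -0.19, beside 0.0012 over all genes, and 36 of 38 lay below 0. The genes that fell were 3 of 4 in complex II, 7 of 8 in complex III, 8 of 11 in complex IV and 10 of 15 in complex V. All 7 set 2 libraries lay below all 5 set 1 libraries for 11 of 38 genes, beside 11.9% of all genes. The count of falling genes was 17 without cKO replicate 1 and 19 with libraries scaled by their totals alone, with 0 rising in either case.

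Uqcrc1, a core protein of complex III, fell most. In set 2 Uqcrc1 stood at 72.4, 68.0, 50.7 and 64.1 CPM in cKO, against 53.7, 57.9 and 57.7 CPM in WT, and in set 1 at 110.1 and 113 CPM in cKO, against 141, 119.7 and 92.2 CPM in WT. The highest set 2 library was below the lowest set 1 library, and the log2 fold change was -0.94 (SE 0.0993, adjusted p = 3.46e-07). In complex V it was Atp5a1, whose levels stand above, with -0.48 (SE 0.0485, adjusted p = 2.27e-07). Sdha of complex II had -0.32 (SE 0.0436, adjusted p = 7.44e-06), and its set 2 libraries lay below all of set 1. Cyc1 (-0.29) and Uqcrfs1 (-0.32), Cox4i1 (-0.24) and Atp5o (-0.20) fell too. The 10 genes not called were Sdhd, Uqcrh, Cox5b, Cox7c, Cox8a, Atp5c1, Atp5d, Atp5g1, Atp5g2 and Atp5l. Atp5l (0.05) and Atp5g2 (0.002) were the pair above 0, and both turned below 0 without single libraries, Atp5l to -0.01 without WT replicate 4 and Atp5g2 to -0.10. Within each genotype the direction held: 38 of 38 genes lay below 0 within cKO (median -0.19, 11 called) and 36 of 38 within WT (median -0.17, 11 called), where edgeR called 14.7% of all genes lower within cKO and 13.2% within WT.

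**Figure D4:**
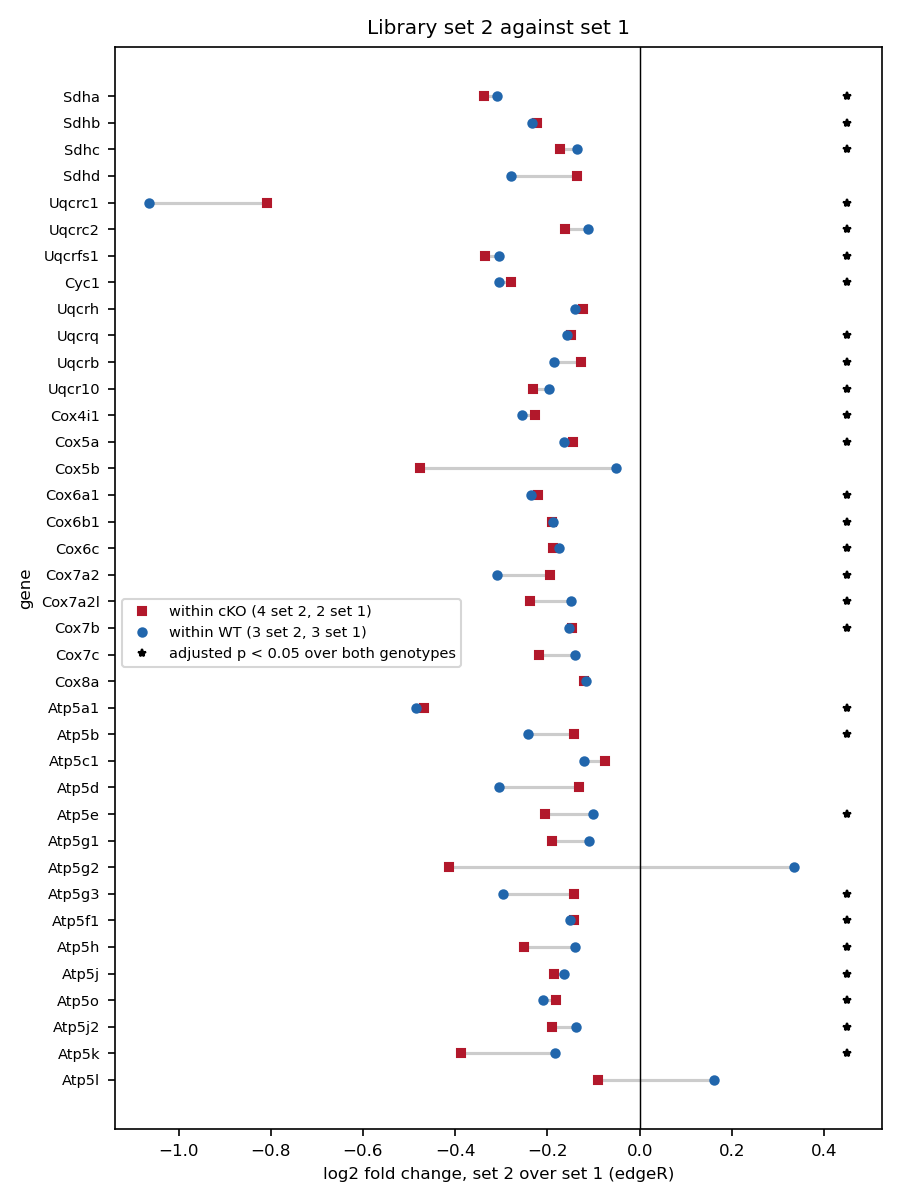
Log2 fold change of each tested subunit gene, set 2 over set 1 (x axis), within cKO (red squares) and within WT (blue circles). Stars at the right mark an adjusted p under 0.05 over both genotypes. All 38 cKO points and 36 of 38 WT points lie left of 0, with Uqcrc1 farthest in both genotypes.

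Cell type markers moved with the sets as well. Astrocyte marker sums were 3567 to 5578 CPM in cKO and 4552 to 5964 CPM in WT of set 2, against 6831 to 7826 CPM in cKO and 6998 to 7846 CPM in WT of set 1, with 4 of 5 markers lower in set 2 by edgeR at an adjusted p under 0.05. Oligodendrocyte lineage sums were at most 650.4 CPM in set 2 and at least 863 CPM in set 1, whereas progenitor marker sums were at least 7778 CPM in set 2 and at most 7129 CPM in set 1. Fabp7 made up most of the progenitor sums, with 7144 to 9830 CPM in set 2 and 5456 to 6671 CPM in set 1. Slc1a3 made up most of the astrocyte sums, with 3234 to 5215 CPM in set 2 and 5922 to 6680 CPM in set 1. Of the 7 tested progenitor markers 4 were called higher and 3 lower, and of 4 tested neuron markers 3 were called higher, with sums of 129 to 260.2 CPM in set 2 and 89.3 to 116 CPM in set 1. What these markers contribute to the fall of the subunit genes was not tested.

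Tissue-specific isoforms, cytochrome c genes and further small subunits, taken as one list, lay mostly below 0 in cKO. Of the 13 genes 9 were tested and 8 lay below 0 in cKO, while the isoform Cox8b stood at 0.08. In edgeR 0 were called and 3 were lower at an unadjusted p under 0.05 (33.3%, beside 3.28% of all genes lower). Among these were the isoform Cox6b2 at -0.14 and Atp5s, which is not an isoform, at -0.20. Between the sets 4 of the 9 fell and 1 rose (55.6% called, beside 43.8% of all genes). Cox8b, the muscle form of a complex IV subunit, fell (log2 fold change -2.66), to 0.522 ± 0.242 CPM in set 2 (SD, n = 7), against 3.33 ± 0.39 CPM in set 1 (SD, n = 5). Cox4i2, an isoform known from lung and from low oxygen, rose (2.80), with 1.82 to 5.70 CPM in set 2, against 0.166 to 1.01 CPM in set 1. Cycs, cytochrome c itself, lay at -0.02 for genotype and fell by 0.28 on the log2 scale between the sets.

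Of 33 assembly factors, 18 were tested, and 10 lay below 0 in cKO (median -0.02), with 0 called and 1 at an unadjusted p under 0.05 (5.56%, beside 6.14% of all genes). That was Sdhaf2 (-0.16), which attaches flavin to Sdha. Next came Ttc19 (-0.12), a factor of complex III. Between the sets 9 of the 18 fell and 0 rose (50% called), where 43.8% of all genes were called, 22.2% lower and 21.5% higher. Among the genes that fell were Cox15 (-0.55), which makes haem a for complex IV, and Sco1 (-0.86), which delivers copper to it. In WT replicate 3 of set 1, Sco1 stood at 13.5 CPM, below all set 2 libraries (13.9 to 18.1 CPM). The rest of set 1 had 29.9 to 33.3 CPM. Of the 6 subunits of complexes III to V encoded in mitochondrial DNA, 2 were tested. In set 2 mt-Cytb stood at 7840, 8759, 8400 and 7806 CPM in cKO, against 8578, 8913 and 8513 CPM in WT. Its levels in set 1 were 10861 and 10825 CPM in cKO, against 11017, 11720 and 11627 CPM in WT. The genotypes overlapped in set 2 but not in set 1. The log2 fold change of mt-Cytb was -0.08 with an unadjusted p of 0.0462 in edgeR, and mt-Co1 lay at -0.03. In set 2 mt-Co1 stood at 3980, 4289, 4131 and 4064 CPM in cKO, below all WT libraries (4738, 4561 and 4615 CPM). In set 1 it stood at 5728 and 5954 CPM in cKO, against 5250, 5756 and 4619 CPM in WT. There the genotypes overlapped, with cKO replicate 2 above all WT libraries. For mt-Co1 edgeR gave an interaction of genotype and set of -0.34 at an unadjusted p of 0.00263 (adjusted p = 1.00). Between the sets mt-Cytb fell by 0.40 and mt-Co1 by 0.33 on the log2 scale. The other 4 (mt-Co2, mt-Co3, mt-Atp6 and mt-Atp8) had at most 0.166 CPM in any library. They could not be judged in RNA-seq. Why they stood so far below mt-Cytb and mt-Co1 was not tested, and their low values are not read as absence of the transcripts.

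Of 12 regulators of respiratory genes, 9 lay above 0 in cKO, with 0 called. Tfb2m, a mitochondrial transcription factor, stood at 4.77 ± 0.665 CPM in cKO and 3.27 ± 0.504 CPM in WT (SD, n = 6 each), a log2 fold change of 0.53 at an unadjusted p of 0.00653 and an adjusted p of 0.803 (edgeR). Ppargc1b was second, at 0.48. Gabpa, the gene that overlaps Atp5j, lay at -0.01. Between the sets 6 regulators rose and 1 fell (58.3% called, where 43.8% of all genes were called and 21.5% were higher). Ppargc1a, the coactivator that drives mitochondrial gene expression, fell by 0.74 on the log2 scale, to 96.4 ± 9.88 CPM in set 2 (SD, n = 7), against 161.6 ± 10.7 CPM in set 1 (SD, n = 5). Its relative Pprc1 rose (1.18), to 29.6 ± 3.38 CPM in set 2, against 12.8 ± 1.64 CPM in set 1.

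HAC-seq measured the same transcripts in other libraries. In this assay hydrazine and aniline cleave RNA at m3C, so reads of a modified molecule start just after it, and the share of such starts is the cleavage ratio. The table listed 1730 C sites in the 39 genes, of which 141 in 35 genes had a coverage of at least 50 in each library and a mean ratio of at least 5%. None passed an adjusted p of 0.05 in a quasi-binomial test (0 of 141, smallest adjusted p = 0.518), where 0.00755% of all 13240 tested sites passed. At an unadjusted p under 0.05, 8 sites were higher and 0 lower in cKO (5.67%), beside 6.62% higher and 2.02% lower over all sites. The count of higher sites was 13 without cKO replicate 3 and 5 without WT replicate 1. Without cKO replicate 1, 6 sites were higher and 3 lower, and without cKO replicate 2, 12 were higher and 3 lower. At a coverage of at least 20, 12 sites were higher and 5 lower. Over all sites the number called was 1, but 5 without cKO replicate 1 and 22 without cKO replicate 2. Mean cleavage over the 141 sites was 9.02% ± 1.00 in cKO (SD, n = 3) and 8.22% ± 0.231 in WT (SD, n = 4), beside 10.1% in cKO and 9.48% in WT over all tested sites. A mean WT ratio above 50% was found at 2 of the 141 sites, and both had ratios above 99% in each genotype. At chr10:128084143 in Atp5b, where the annotation also has Snord59a, the ratio was 99.6% in cKO and 99.5% in WT. The site the file assigns to Atp5o and Itsn1 at chr16:91729622 had 99.8% in cKO and 99.5% in WT, and it lies outside the RefSeq span of Atp5o. The next highest, in Cox6a1, had 18.3% ± 7.24 in cKO (SD, n = 3) and 23.5% ± 4.55 in WT (SD, n = 4).

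Read coverage at the HAC-seq sites lay lower in cKO for 36 of 37 of these genes. Coverage was averaged on the log2 scale over the sites of a gene with at least 50 reads in each library, and centred on the median gene. This readout was added after the data were seen. The subunit genes with at least 3 such sites had a median log2 fold change of -0.19, whereas 1683 of all 3477 genes lay below 0 (median 0.0066). None was called by limma (0 of 37, smallest adjusted p = 0.424), where 0.0288% of all genes were, and 11 were lower and 0 higher at an unadjusted p under 0.05, beside 6.36% lower and 4.86% higher over all genes. All 3 cKO libraries lay below all 4 WT libraries for 14 of 37 genes, beside 7.91% of all genes. The medians were -0.15 for complex II (4 of 4 below 0), -0.21 for complex III (8 of 8), -0.17 for complex IV (10 of 11) and -0.21 for complex V (14 of 14). Sites of a gene share reads, so they are not independent, and all 57 sites of Cox4i1 and 47 of 62 sites of Atp5o are also assigned to another gene.

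Uqcr10 had the lowest value. Its coverage was 184.5, 152.3 and 120.5 reads per site in cKO, against 202.7, 203.5, 198.7 and 185.3 in WT, with no overlap (limma log2 fold change -0.39, SE 0.133, unadjusted p = 0.0161). Cox7b had 128, 165 and 162 reads per site in cKO, against 206, 194, 181 and 176 in WT, again with no overlap (-0.32, SE 0.11, unadjusted p = 0.0169). Atp5j, with 153, 159 and 156 reads per site in cKO, against 187, 174, 179.5 and 186 in WT, had the smallest unadjusted p of the subunit genes (-0.22, SE 0.0712, unadjusted p = 0.0132, limma). Sdha stood at 119.7, 128 and 113 reads per site in cKO, against 144, 137, 144 and 139 in WT, also without overlap (-0.23, SE 0.0769). Uqcrh overlapped widely, at 412, 392 and 360.4 reads per site in cKO, against 409, 392, 406 and 363 in WT (-0.02, SE 0.0925). Cox7a2l, at 0.06 (SE 0.109), was the only one of the 37 above 0.

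Of 36 genes with a value in both readouts, 28 lay below 0 in RNA-seq, 35 in coverage and 27 in both, a count that the first pair of numbers nearly fixes. Across these 36 genes, which are not independent replicates, Pearson's r between the log2 fold changes was 0.13 and Spearman's rho 0.13. Of the core genes of complex III, Uqcrc1 stood at -0.22, Uqcrc2 at -0.33 and Uqcrfs1 at -0.20 in coverage. Of the catalytic head of complex V, Atp5c1 stood at -0.21 and Atp5b at -0.14, and Atp5a1, Atp5d and Atp5e each at -0.03. Without cKO replicate 3 of HAC-seq the median was -0.11, with 31 of 37 below 0. The count of genes at an unadjusted p under 0.05 was 5 without cKO replicate 3 or WT replicate 4, 6 without WT replicate 1 and 7 without WT replicate 2.

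**Figure D5:**
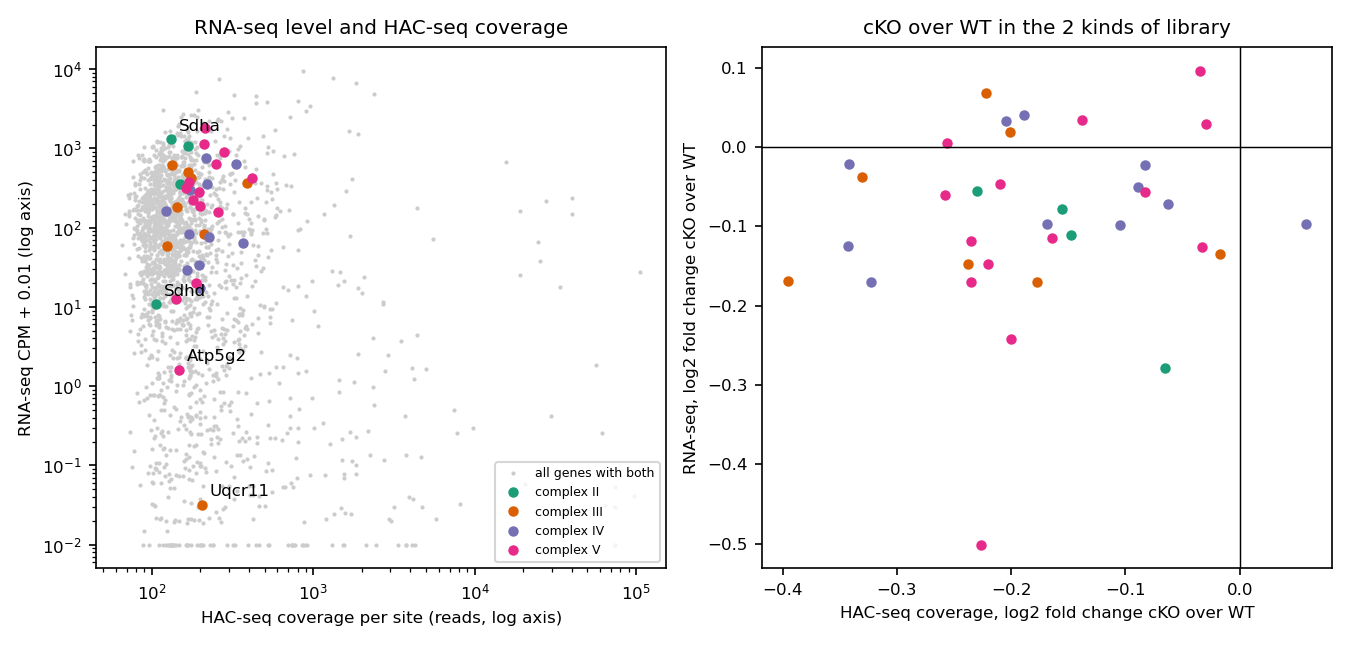
Left, mean RNA-seq CPM plus 0.01 (y axis, log) against mean HAC-seq coverage per site (x axis, log) for all genes with both (grey) and for subunit genes by complex (colours as in the legend). These CPM are relative to library totals, without the TMM factors. Uqcr11 and Atp5g2 have the lowest CPM of the subunit genes, at coverages of 203 and 146. Right, log2 fold change cKO over WT in RNA-seq (y axis) against HAC-seq coverage (x axis) for the 36 genes with both, of which 28 lie below 0 in RNA-seq, 35 in coverage and 27 in both.

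Uqcr11 and Atp5g2 had few RNA-seq counts and coverage above that of the median gene in HAC-seq. Uqcr11 had 256, 194 and 145 reads per site in cKO, against 236, 201, 216 and 193 in WT over 41 sites, a mean of 203 that exceeded 72.4% of genes with both readouts, while its RNA-seq counts were at 0 in 10 of 12 libraries. Atp5g2 had a coverage of 146 beside 1.60 CPM, at a level that exceeded 51.8% of genes. The CPM set beside coverage here are relative to library totals, without the TMM factors. Cox5b had 199 beside 17.1 CPM, and Sdhd, with 10.8 CPM, had the lowest coverage of the 37 subunit genes, at 106. Whether reads of such genes were lost in mapping or counting of the RNA-seq libraries was not tested, and the values of Atp5g2 above rest on what was counted.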

How the data were processed

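RNA-seq (SMART-seq2) covered 6 cKO and 6 WT libraries and HAC-seq 3 and 4. The submitters' processing notes name bcl2fastq 2.17.1.14, Trimmomatic 0.32, STAR 2.5.2a and mouse build GRCm38, while the counting program is not given in the sources used here. Per the file headers, the RNA-seq values are whole-number counts per gene. Low counts were mostly even (17.4% of counts from 1 to 10 were odd), so halved counts were an alternative. The deposited HAC-seq table holds, per C site, read-start signal, coverage counts and the cleavage ratio as a fraction, as the authors computed them. No sample column was left out.

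Counts were filtered by expression (26621 genes, 6309 with no count, 13105 kept), scaled by TMM and tested with edgeR 4.0.16 (quasi-likelihood, genotype plus library set). HAC-seq sites were tested with a quasi-binomial model and coverage per gene with limma 3.58.1. p-values were adjusted by Benjamini-Hochberg over all features. The edgeR genotype fit, the quasi-binomial fit and the limma coverage fit were tried on simulated data, the other steps were not. RefSeq tables (GRCm38.p6) gave promoters and gene spans, and 13 of the 39 genes overlap another gene there, so reads may be shared. Alternatives were DESeq2 1.42.0, limma-voom, other scalings and filters, no set term, each set alone, a replicate block and each library left out. Depth ranged from 11830839 to 15766429 counts in cKO and from 15096888 to 18863781 in WT. Values in every library are given for all Sdh genes and, in each other complex, for the catalytic or core subunits other than Uqcrc2 and those with the smallest p for genotype (3), set (2) and interaction (1), and of each related list the 2 genes of smallest p are named. Gabpa, Cycs and the mt-Co1 interaction were added after their values were seen. The members and lists were chosen with earlier results of these data known.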

Additional observations from a re-analysis of the deposited data

Results flagged for a closer look

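Of 121 groups examined, 6 held a library that stood apart from the rest of its group by Dixon's criterion. Each group held the 6 RNA-seq libraries of a genotype or the 4 WT libraries of HAC-seq. Chance gives about 1 in 20 in uniform groups. The RNA-seq groups pooled both library sets, so that rate need not hold for them. Uqcrh was low in cKO replicate 3, at 287 CPM, where the other 5 cKO libraries ranged from 341 to 370.3 CPM. Atp5c1 was low in the same library, at 1005 CPM, with the others from 1130.0 to 1183 CPM. In WT replicate 6, Cox6a1 was low at 48.0 CPM (63.6 to 72.8 CPM in the others) and so was Atp5h at 171 CPM (198 to 213 CPM in the others). Atp5d was high in WT replicate 1, at 16.8 CPM, with the others from 10.2 to 12.3 CPM. In HAC-seq, the coverage of Atp5j2 was high in WT replicate 1, at 258 reads per site, against 189.6 to 201 in the other 3 WT libraries.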

How the results depend on the processing

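No subunit gene was called for genotype, for the interaction or in HAC-seq under any alternative, and no called direction reversed. Over all genes, the genotype count of 0 became 65 without a filter on low counts, 2 in set 2 alone, 2 with DESeq2, 1 with limma-voom and 0 to 1 with single libraries left out. The 15 subunit genes at an unadjusted p under 0.05 became 9 without the set term, 8 in set 2 alone, 1 in set 1 alone and 8 to 16 with single libraries left out. The 28 set calls ranged from 17 to 29 with single libraries left out. The complex III median of -0.09 became -0.14 without a filter, -0.14 without the set term and -0.13 with DESeq2. Uqcr11 enters both without the filter and with DESeq2. The mean over complex II was -0.13, beside a median of -0.09. The cause of these shifts was not tested. Replicate numbers did not pair the libraries: same-numbered RNA-seq libraries correlated at -0.05 to 0.17, and 1 of 6 cKO libraries correlated best with its own number. In RNA-seq the replicate block gave 7 subunit genes at an unadjusted p under 0.05 and 2 genes called. The libraries of replicate 3 fall in different sets, so that pair carried no genotype information in the block. In HAC-seq coverage the block gave 3 instead of 11, but it also left out WT replicate 4, and leaving out that library alone gave 5. Signs of uncalled genotype values turned in 32 of 874 cases, in 12 genes. Low counts limit Uqcr11, Atp5g2, Sdhd and Atp5d.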
